A study of Mus musculus with 10 samples.

Results

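Nuclear receptors are transcription factors, many of them switched by small lipophilic ligands, and the 36 receptor genes described here were chosen by symbol, by a rule that uses no measured value. They were read from a table of 55487 mouse genes, in which each of the 36 was found once. The table holds liver RNA counts of 10 libraries from C57B/6J mice (strain as the labels spell it) aged 22 months and kept on normal chow. In 5 libraries, called LKO, Arg2 had been deleted in hepatocytes. The other 5 libraries, called Flox, came from littermates housed with them that carried floxed Arg2 alleles and kept the gene. The Cre driver is not given in the sources used here, and no label says that each library is a separate mouse, so p-values measure only the spread between these libraries.

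As background, a nuclear receptor binds short DNA repeats, often as a pair with a retinoid X receptor (RXR), and changes the transcription of nearby genes when its ligand is bound. In hepatocytes such receptors read bile acids, oxysterols, fatty acids, thyroid hormone, glucocorticoids and foreign chemicals, while HNF4A keeps the hepatocyte programme itself. During an acute phase response the liver turns to making serum amyloid and other plasma proteins, and falling receptor function is a known feature of that state.

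Total counts were 43331354 to 53891438 in LKO and 44926666 to 54951415 in Flox libraries. Where a library had 0 counts of a gene, counting error alone leaves room for 3 counts, equal to 0.0546 to 0.0692 CPM (counts scaled to a common library size). Arg2 had 10 counts in all LKO libraries together and 9 in all Flox libraries together, too few to check the deletion over the whole gene. The acute phase score, the mean log2 CPM of 26 acute phase genes, was 7.49, 8.90, 8.35, 8.08 and 7.84 in LKO libraries 1 to 5, against 8.06, 10.24, 10.98, 9.55 and 7.60 in Flox libraries 1 to 5. Flox 2 and Flox 3 stood apart at the high end, and the counts on the acute phase slope are also given without them. Hepatocyte markers were abundant in every library (summed 132400 to 160500 CPM in LKO and 59880 to 129200 CPM in Flox). LKO libraries are numbered by their column in the table, since those numbers match no LKO title.

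Levels between genes are compared per length, as TPM (a length-scaled share of each library) over the union of annotated exons. Of the 36 receptors, 16 averaged 10 TPM or more, 13 lay between 1 and 10 TPM, and 7 were under 1 TPM. Hnf4a, the hepatocyte master regulator, was the most abundant at 267 ± 43.4 TPM (SD, n = 10 libraries), which placed it 405th among all genes with a length. Rxra, the shared dimer partner, followed at 166 ± 27.0 TPM. Then came the oxysterol receptor Nr1h3 (LXR alpha, 107 TPM) and the bile acid receptor Nr1h4 (FXR, 96.5 TPM). Below them stood Nr0b2 (SHP, a repressor without a DNA-binding domain, 62.9 TPM), the orphan receptor Nr2f6 (51.5 TPM), the xenobiotic receptor Nr1i2 (PXR, 50.3 TPM) and the fatty acid receptor Ppara (38.5 TPM).

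Hnf4a had 234, 263, 266, 271 and 223 TPM in LKO libraries 1 to 5, against 218.5, 330.3, 348, 274 and 239 TPM in Flox libraries 1 to 5. Rxra had 145, 152, 154, 136 and 167 TPM in LKO, against 132.5, 211, 204, 182 and 169 TPM in Flox. For both genes the highest levels were those of Flox 2 and Flox 3, and the groups overlapped. Nr1h3 had 112, 96.4, 100.5, 90.1 and 105 TPM in LKO, against 112, 117, 129, 106 and 103 TPM in Flox. Nr1h4 had 111, 105, 73.0, 83.1 and 135 TPM in LKO, against 96.65, 94.1, 74.8, 74.8 and 117 TPM in Flox. Nr1h3 was even across libraries, whereas Nr1h4 was highest in library 5 of each group. Nr0b2 had 126, 57.25, 44.3, 38.1 and 49.7 TPM in LKO, against 89.05, 71.8, 59.5, 28.9 and 64.95 TPM in Flox. Nr2f6 had 53.5, 47.2, 52.8, 35.4 and 39.3 TPM in LKO, against 45.0, 82.3, 57.1, 51.1 and 51.6 TPM in Flox. Nr0b2 peaked in library 1 of each group and Nr2f6 in Flox 2. Nr1i2 had 45.9, 50.8, 47.6, 42.5 and 58.8 TPM in LKO, against 46.8, 53.5, 55.2, 51.2 and 50.5 TPM in Flox. Ppara had 38.9, 35.5, 31.0, 27.4 and 63.3 TPM in LKO, against 26.45, 44.1, 29.5, 26.9 and 62.2 TPM in Flox. Nr1i2 varied little, and Ppara was high in library 5 of each group.

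**Figure D1:**
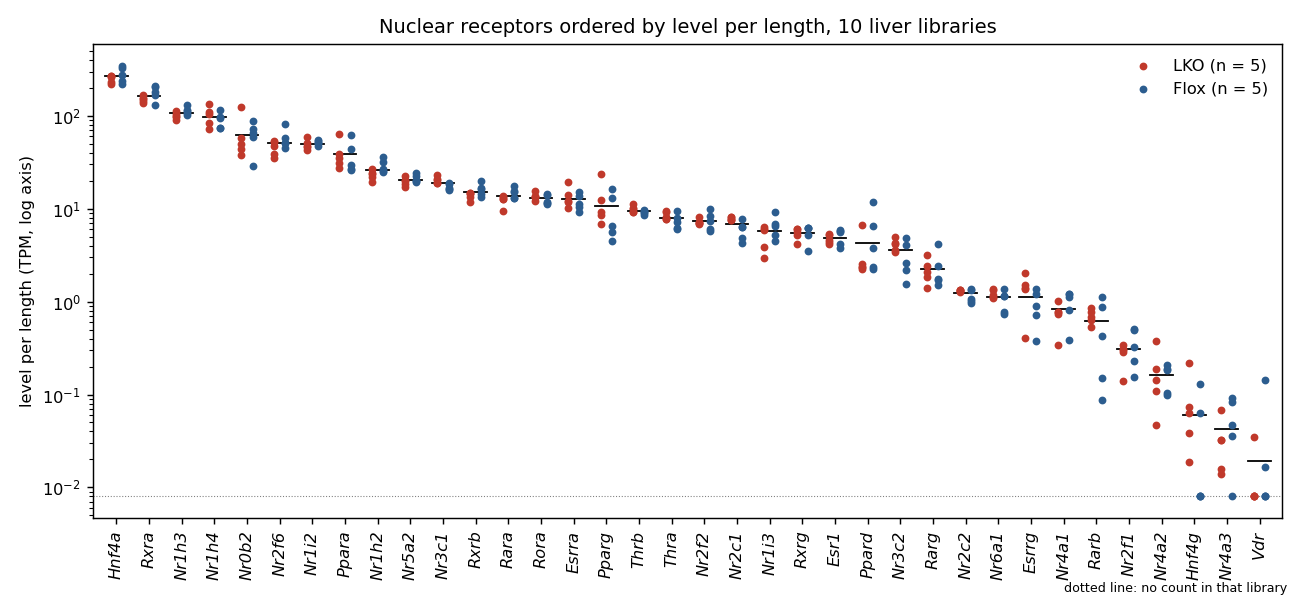
Level of each of the 36 receptors in TPM (log axis), ordered by the mean over 10 libraries (black bar), with LKO points left of Flox points and libraries without a count on the dotted line. Hnf4a leads at 267 TPM and Vdr is last at 0.0194 TPM.

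For 32 of the 35 neighbouring pairs in the order the ranges over libraries overlapped. The exceptions, in the same order in all 10 libraries, were Hnf4a above Rxra, Rxra above Nr1h3, and Rarg above Nr2c2. Rarg is a retinoic acid receptor and Nr2c2 (TR4) an orphan receptor. The order of Rarg and Nr2c2 depends on the length used, since Nr2c2 spans 14935 bases as exon union and 7647 as longest transcript. With longest transcripts Rarg stood below Nr2c2 in LKO 1 (124 counts over 2953 bases, against 403 over 7647). Compared within each library, 3 further pairs kept their order in 9 of 10 libraries. They were Nr1h4 above Nr0b2, Thrb above Thra, and Nr4a2 above Hnf4g. Another 7 pairs kept theirs in 8 of 10. With the longest transcript as length, however, Thra averaged above Thrb (12.4 against 9.495 TPM). After Ppara came Nr1h2 (LXR beta, 26.1 TPM), Nr5a2 (LRH-1, an activator of bile acid synthesis, 20.5 TPM) and Nr3c1 (the glucocorticoid receptor, 18.8 TPM). Rxrb, Rara, Rora, Esrra and Pparg followed at 14.98 to 10.7 TPM. Between 10 and 1 TPM stood, in order, Thrb, Thra, Nr2f2, Nr2c1, Nr1i3, Rxrg, Esr1, Ppard, Nr3c2, Rarg, Nr2c2, Nr6a1 and Esrrg. Nr1i3 (CAR, partner of PXR in drug metabolism) averaged 5.75 TPM, but 74.9% of its exon length overlaps Tomm40l on the other strand. Strandedness is not given, so reads of such pairs cannot be told apart. The same holds for Nr2f6 (54.4% shared with Ocel1), Rarb (34.1% with Top2b), Nr2c2 (30.7% with Mrps25), Nr2f2 (7.5%) and Thra (5.7% with Nr1d1). At the bottom were Nr4a1, Rarb, Nr2f1, Nr4a2, Hnf4g, Nr4a3 and the vitamin D receptor gene Vdr.

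Within families, 1 gene usually held most of the RNA per length. Rxra made up 88.7 ± 0.862% of RXR TPM in LKO and 89.1 ± 1.37% in Flox (SD, n = 5 each). Nr1h3 made up 81.2 ± 1.31% of LXR TPM in LKO and 79.7 ± 2.25% in Flox. Rara, of the retinoic acid receptors, held 81.2 ± 3.29% in LKO and 84.2 ± 5.43% in Flox. The thyroid hormone receptors were closest to even, with Thrb at 54.1 ± 2.90% in LKO and 55.6 ± 4.14% in Flox. Which of them held more depends on the length used. With the longest transcript as length, Thra averaged 12.4 TPM and Thrb 9.495 TPM. Ppara held 72.4 ± 3.998% of PPAR TPM in LKO and 72.0 ± 11.7% in Flox. Its share was lowest in Flox 1, at 51.4%, where Ppard held 23.1%. Hnf4a held over 99.9% of HNF4 TPM in every library, with Hnf4g, a paralogue known from intestine, near the detection floor.

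Promoter sequence is shown for 4 receptors whose levels the following results turn on: Nr2c1 and Nr2f2, which fell with the acute phase score, and Ppard and Nr0b2, which peaked in library 1 of both groups. These 4, and the letters put in capitals, were chosen after the values and the matches had been seen. Each is the 250 bases before the RefSeq start on GRCm38.p6, 5′ to 3′ on the gene's strand: chr10:94147681-94147930 (plus strand), chr7:70366747-70366996 (minus), chr17:28232504-28232753 (plus) and chr4:133553126-133553375 (plus). Capitals mark every match, on either strand, to any of the 10 motifs listed after the sequences.
Nr2c1: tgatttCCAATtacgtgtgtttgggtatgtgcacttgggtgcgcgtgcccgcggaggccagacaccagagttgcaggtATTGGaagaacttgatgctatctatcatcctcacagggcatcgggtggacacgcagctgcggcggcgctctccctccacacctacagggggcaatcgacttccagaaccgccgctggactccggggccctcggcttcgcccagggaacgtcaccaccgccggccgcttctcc
Nr2f2: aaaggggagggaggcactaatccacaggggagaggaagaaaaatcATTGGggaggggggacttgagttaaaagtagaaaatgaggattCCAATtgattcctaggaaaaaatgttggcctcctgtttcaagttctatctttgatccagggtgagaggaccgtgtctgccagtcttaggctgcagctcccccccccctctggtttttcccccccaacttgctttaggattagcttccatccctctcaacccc
Ppard: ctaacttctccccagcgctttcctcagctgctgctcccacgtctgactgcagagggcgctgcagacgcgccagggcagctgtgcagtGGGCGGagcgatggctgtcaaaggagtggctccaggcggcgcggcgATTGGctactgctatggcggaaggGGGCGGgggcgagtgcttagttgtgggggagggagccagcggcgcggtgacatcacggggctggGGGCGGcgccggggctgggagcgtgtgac
Nr0b2: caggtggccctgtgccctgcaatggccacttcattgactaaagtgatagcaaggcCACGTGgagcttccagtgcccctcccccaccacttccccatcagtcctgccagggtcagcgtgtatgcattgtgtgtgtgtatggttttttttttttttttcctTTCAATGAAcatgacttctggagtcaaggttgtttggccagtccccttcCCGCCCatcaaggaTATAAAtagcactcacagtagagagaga
Capitals are CCAAT boxes in Nr2c1 and Nr2f2, GC boxes and a CCAAT box in Ppard, and an E-box, a STAT site, a GC box and a TATA box in Nr0b2.

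Promoters were found for 33 of the 36 receptors, with 52 starts, and Hnf4g, Nr3c1 and Thra are named without one. The 10 motifs were searched on both strands in the 250 bases before each start, in these 52 promoters and in all 32851. The GC box GGGCGG was in 48.1% of receptor promoters and 32.7% of all, and the CCAAT box in 30.8% and 33.9%. The nuclear receptor hexamer AGGTCA was in 17.3% of receptor promoters and 14.0% of all. TATAAA was in 11.5% and 12.4%, the E-box CACGTG in 7.69% and 6.02%, the STAT site TTCNNNGAA in 7.69% and 7.02%, and the C/EBP-type site TTNNGNAAT in 7.69% and 10.2%. The cyclic AMP element TGACGTCA, the HNF4 site CAAAGTCCA and DR1, the hexamer AGGTCA repeated after any 1 base (so that a DR1 match also counts as a hexamer match), were in 0 of the 52 and in 1.55%, 0.384% and 0.0335% of all. These shares describe letters in a window and carry no test.

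Deletion of Arg2 in hepatocytes was set against Flox for all genes at once. With edgeR's quasi-likelihood test, 0 of 15894 genes (0%) and 0 of the 33 receptors tested passed an adjusted p of 0.05, the smallest adjusted p being 0.652. DESeq2 called 6 genes at its default settings (0.0383%) and 0 with alpha set to 0.05 in its independent filtering, and limma-voom called 0. None of the 3 tools called a receptor. At an unadjusted p under 0.05 stood 3 of 33 receptors (9.09%), against 7.51% of all genes (1193). They were Nr2c1 and Nr3c1, higher in LKO like 3.17% of all genes, and Nr1h2, lower in LKO like 4.33%. DESeq2 gave an unadjusted p under 0.05 to 2 of the receptors, Nr2c1 and Nr3c1. Over the 32926 genes with a DESeq2 p-value, without the filter used for edgeR, 1603 (4.87%) had such a p. Of the receptors 17 were higher and 16 lower in LKO, with a median log2 fold change of 0.037, against -0.008 over all genes tested. For 31 of the 33 the estimate was under 0.5 log2 units in size.

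The glucocorticoid receptor gene Nr3c1 had 73.3, 63.1, 69.35, 81.8 and 64.2 CPM in LKO libraries 1 to 5, against 59.4, 54.5, 52.8, 61.3 and 61.3 CPM in Flox. Every LKO value lay above every Flox value. Its log2 fold change was 0.28 ± 0.09 (SE; unadjusted p = 0.0105, adjusted p = 0.652 by edgeR). With 1 library left out it ran from 0.223 to 0.321. Without Flox 2 and Flox 3 its unadjusted p by edgeR was not under 0.05. Nor was it when the fit also held the acute phase score. Nr2c1 (TR2, an orphan receptor that acts with TR4) had 16.1, 15.5, 16.6, 16.4 and 16.85 CPM in LKO, against 13.75, 9.55, 8.49, 12.2 and 15.46 CPM in Flox. The groups again did not overlap, although LKO 2 at 15.48 CPM and Flox 5 at 15.46 CPM nearly met. Its log2 fold change was 0.45 ± 0.15 (SE; unadjusted p = 0.0102, adjusted p = 0.652 by edgeR), and 0.24 without Flox 2 and Flox 3. It was 0.23 when the fit also held the acute phase score. In both of these fits the unadjusted p of Nr2c1 by edgeR was under 0.05, while 0 receptors passed after adjustment. Groups did not overlap for 2 of the 33 receptors (6.06%) and for 0.906% of all genes.

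Nr1h2 had 36.8, 32.15, 39.4, 30.45 and 36.6 CPM in LKO, against 40.3, 35.7, 52.4, 44.6 and 38.15 CPM in Flox. Flox 3 was highest and the groups overlapped. Its log2 fold change was -0.27 ± 0.12 (SE; unadjusted p = 0.0411, adjusted p = 0.652 by edgeR), and -0.18 without Flox 3. Beside these values, all 26 acute phase genes were lower in LKO, 17 at an unadjusted p under 0.05 and 0 after adjustment by edgeR. Their median log2 fold change was -1.07. Of 8 erythroid markers, 7 were higher in LKO at an unadjusted p under 0.05. Summed levels of the 8 were 451 to 885 CPM in LKO and 225 to 400 CPM in Flox (none at 0). Of 9 markers of T and NK cells tested, 4 had lower LKO values at that level, with sums of 2.02 to 4.66 CPM in LKO and 3.82 to 11.8 CPM in Flox. All 10 Kupffer cell markers had lower values in LKO and none reached an unadjusted p of 0.05. The part of these cells in the receptor values was not tested, and in bulk tissue fewer cells of a type and less RNA per cell cannot be told apart.

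**Figure D2:**
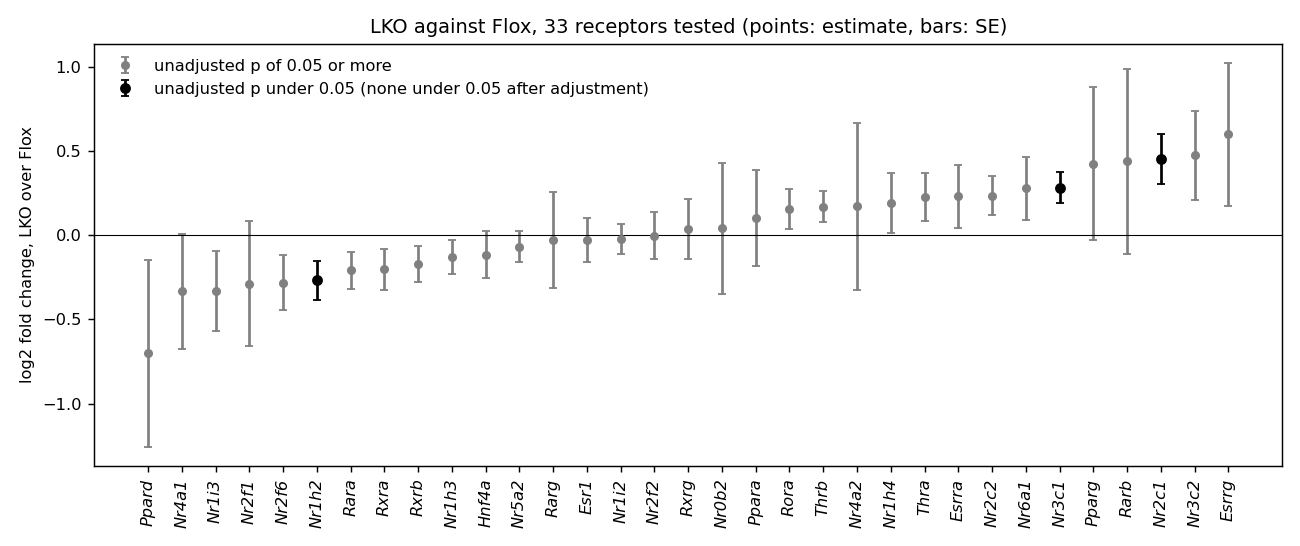
Log2 fold change of LKO over Flox (points) with SE (bars) for the 33 receptors tested, ordered by estimate. Black points are the 3 with an unadjusted p under 0.05 (Nr1h2, Nr3c1 and Nr2c1), none of which passed after adjustment.

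The relation to the acute phase level was fitted as a slope, in log2 units per log2 unit of the score, with group kept in the model. This fit uses the same 10 libraries as the comparison of groups. Of all genes, 1004 passed (6.32%), and of the receptors 3 of 33 (9.09%). All 3 fell with the score, as did 3.67% of all genes (2.64% rose). They were Nr2c1, Nr6a1 (GCNF, an orphan receptor) and Nr2f2 (COUP-TFII, known in mesenchymal and venous endothelial cells).

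Nr2c1 had a slope of -0.22 ± 0.05 (SE; adjusted p = 0.0187 by edgeR). Its lowest values were those of Flox 3 and Flox 2, as given above. Nr6a1 had 6.83, 5.13, 6.45, 5.63 and 5.63 CPM in LKO, against 5.82, 3.60, 3.43, 5.27 and 6.34 CPM in Flox, with a slope of -0.26 ± 0.06 (SE; adjusted p = 0.0362 by edgeR). Nr2f2 had 27.8, 25.6, 27.2, 32.3 and 27.1 CPM in LKO, against 29.7, 22.6, 21.4, 30.2 and 36.4 CPM in Flox, with a slope of -0.19 ± 0.05 (SE; adjusted p = 0.0423 by edgeR). In all 3, Flox 2 and Flox 3 were the lowest of the 10 libraries.

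These calls rest on few libraries. No receptor passed without Flox 1, without Flox 3 or without Flox 5, and none without Flox 2 and Flox 3 together (1.95% of all genes then passed), where the slopes were -0.12 for Nr2c1, -0.15 for Nr6a1 and -0.09 for Nr2f2. Of all genes, 388 of 16133 passed without Flox 1, 264 of 16176 without Flox 3 and 182 of 16096 without Flox 5. Leaving out 1 library at a time, Nr2c1 passed in 7 of 10 fits, and Nr6a1 and Nr2f2 in 4 each. Without Flox 2 or without LKO 2, 1 receptor passed, Nr2c1 (beside 846 of 16129 and 686 of 16156 genes). Scores above 8.90, the highest in LKO, occurred in Flox 2, 3 and 4 alone. Stellate cell markers moved with the score as well: 3 of 10 fell past the threshold (1 without Flox 2 and Flox 3), and their sum was 161 to 233 CPM in LKO and 105 to 244 CPM in Flox, lowest in Flox 2 and Flox 3 (105 and 112 CPM). Of 9 hepatocyte markers tested 3 fell, among them Ttr, and 0 without those libraries. The part of either cell type in the receptor slopes was not tested.

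Before adjustment, 13 of the 33 receptors (39.4%) had p under 0.05 on the score, against 22.2% of all genes. Of these 10 fell (30.3%, against 11.7%) and 3 rose (9.09%, against 10.5%). Without Flox 2 and Flox 3, 6 receptors had p under 0.05, against 12.8% of all genes. Of the 13, Nr1h4, Pparg and Rora were among these 6, and Esrrg, Nr0b2 and Rarg were the others. With all libraries, the median slope was -0.133 over the receptors and 0.005 over all genes tested. The 3 with rising estimates were Hnf4a (0.17 ± 0.05 SE), Rxra (0.11 ± 0.05) and the oestrogen receptor gene Esr1 (0.14 ± 0.06), and none passed the adjusted threshold with edgeR. Hnf4a, at an adjusted p of 0.0596 by edgeR, passed with DESeq2 (0.0115), with limma-voom (0.0220), with Saa1 plus Saa2 as the score (0.0485) and without the group term (0.0290), and was at 0.706 without Flox 2 and Flox 3. Of the falling ones, Pparg (-0.53 ± 0.15) and Rarb (-0.72 ± 0.23) had the steepest estimates, with adjusted p of 0.0767 and 0.0870 by edgeR. Nr1h4, Nr3c2, Thra, Esrra and Rora complete the 10. With all libraries, neither Nr0b2, Nr1i2, Nr1i3, Ppara nor Nr3c1 reached an unadjusted p of 0.05.

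**Figure D3:**
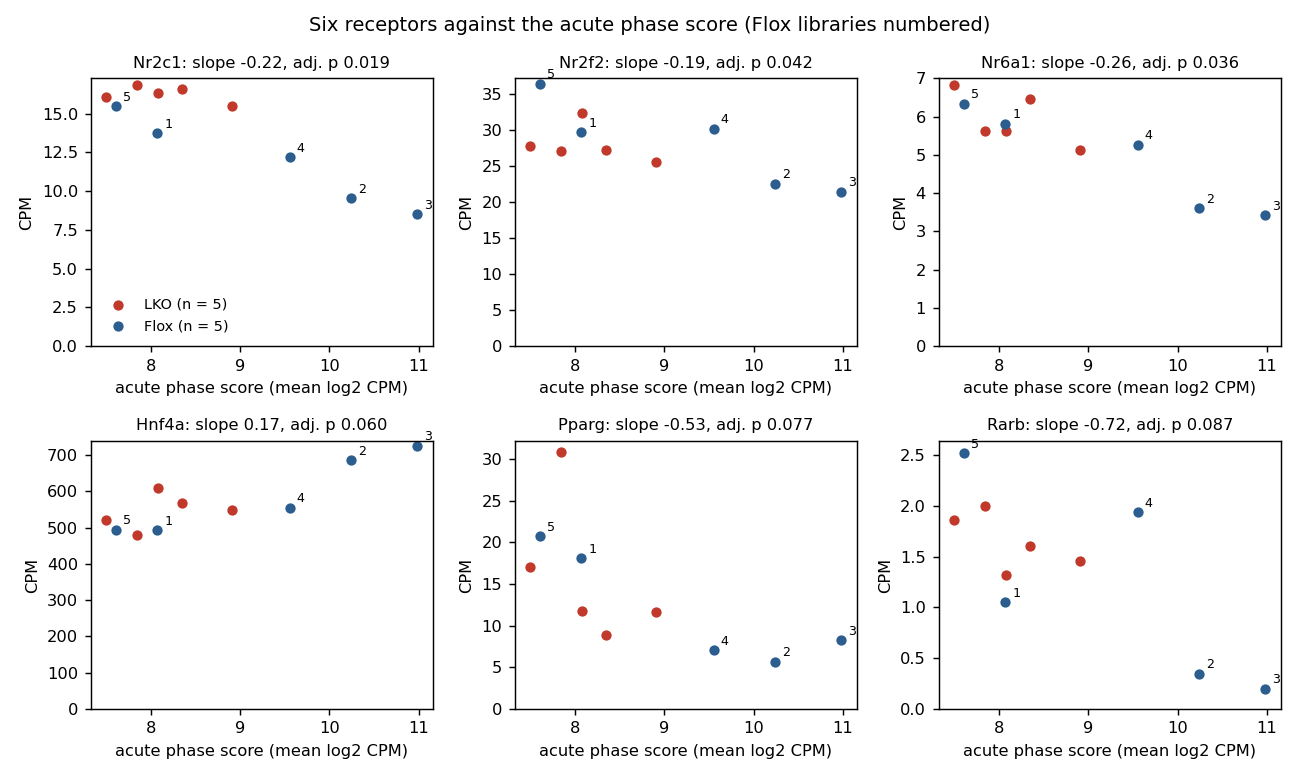
Level in CPM of 6 receptors against the acute phase score (mean log2 CPM) in 5 LKO and 5 Flox libraries, the Flox libraries numbered. Nr2c1, Nr2f2 and Nr6a1 are lowest in Flox 2 and Flox 3, and Hnf4a is highest there.

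Receptors differed in how far they varied between libraries. The ratio of the highest to the lowest library was under 1.5 for 6 of 33 (Nr1h3, Nr1i2, Nr2c2, Nr5a2, Rxra and Thrb) and at least 5 for 5 (Nr4a2, Rarb, Ppard, Pparg and Esrrg). Ppard, a fatty acid receptor of wide expression, had 23.4, 8.22, 7.83, 8.29 and 7.54 CPM in LKO, against 41.8, 21.15, 12.2, 6.997 and 7.69 CPM in Flox. It stood high in LKO 1, Flox 1 and Flox 2. Its log2 fold change of -0.70 ± 0.55 (SE; adjusted p = 0.731 by edgeR) was -1.17 to -0.12 when 1 library was left out. Nr0b2 had 65.6, 28.0, 22.3, 20.1 and 25.1 CPM in LKO, against 47.1, 34.99, 29.1, 13.7 and 31.5 CPM in Flox. LKO 1 was far above the other LKO libraries, and Flox 1 was the highest of its group. Pparg, known for lipid storage, had 16.99, 11.7, 8.93, 11.8 and 30.9 CPM in LKO, against 18.1, 5.67, 8.23, 7.05 and 20.7 CPM in Flox. Libraries 1 and 5 of each group were its highest. Rarb, a retinoic acid receptor, had 1.86, 1.46, 1.61, 1.31 and 2.003 CPM in LKO, against 1.05, 0.344, 0.197, 1.94 and 2.52 CPM in Flox, lowest in Flox 3 and Flox 2.

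**Figure D4:**
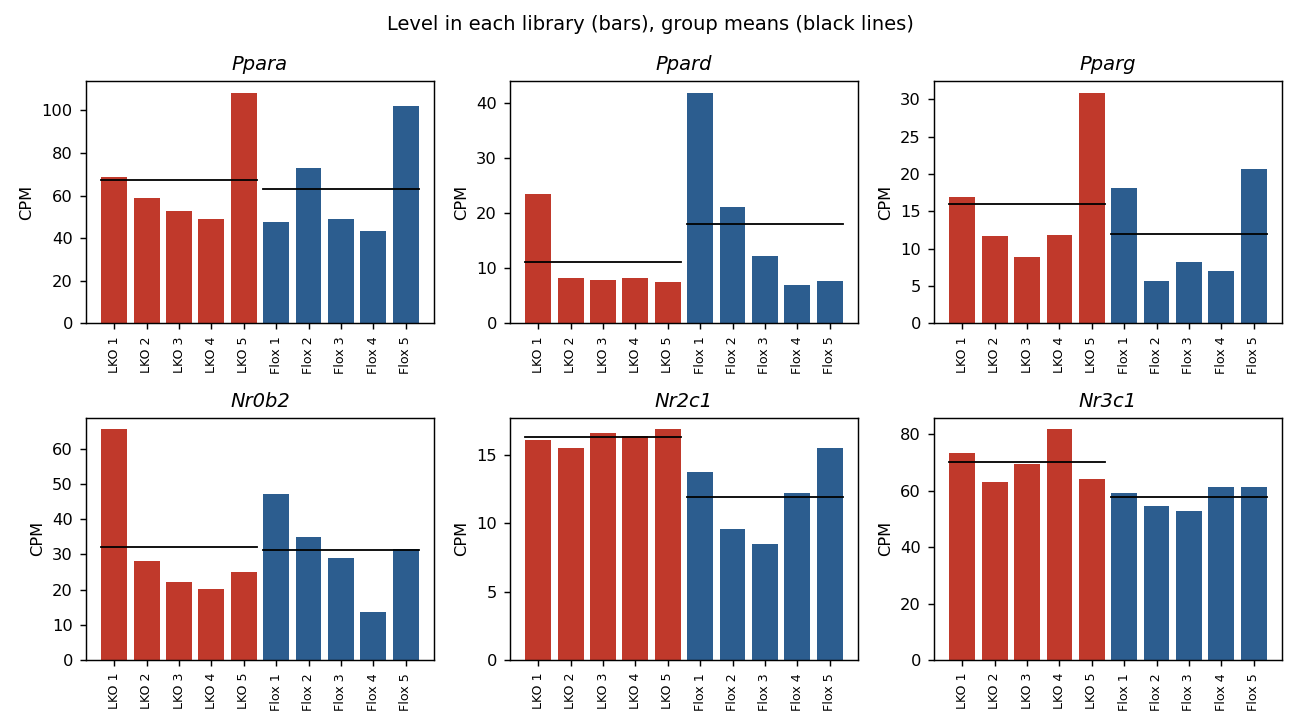
Level in CPM of 6 receptors in each library (bars), LKO left of Flox, with group means as black lines. Ppara is high in library 5 of both groups, and Ppard and Nr0b2 in library 1 of both, while each LKO bar of Nr2c1 and Nr3c1 exceeds each Flox bar.

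At the low end, Nr2f1 (COUP-TFI) had 0.732, 0.760, 0.677, 0.329 and 0.655 CPM in LKO, against 1.19, 0.506, 0.721, 0.332 and 1.11 CPM in Flox. The 3 receptors that fell below the filter were counted as follows. Nr4a3, an early-response orphan receptor, had 20 counts in LKO and 34 in Flox. Hnf4g had 23 counts in LKO and 12 in Flox. Vdr had 4 counts in LKO, all in LKO 2, and 18 in Flox, with 2 in Flox 2 and 16 in Flox 3. Without the filter Vdr passed on the acute phase slope (adjusted p = 0.0111 by edgeR), on those few counts.

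Other genes of these pathways were read from lists chosen with earlier results known, and in the group comparison 0 genes of any list passed. On the acute phase slope, 3 of 13 FXR and SHP targets fell past the threshold, led by Cyp8b1, the sterol 12-hydroxylase of bile acid synthesis (-0.95 ± 0.09 SE), and the bile acid importer Slc10a1 (-0.55 ± 0.08). Among LXR targets 3 of 10 fell, with Scd1, a fatty acid desaturase, at -1.20 ± 0.11 and Lpcat3, a phospholipid acyltransferase, at -0.48 ± 0.07. PPARA targets fell in 3 of 17 cases, including the peroxisomal enzymes Acaa1b (-0.88 ± 0.14) and Ehhadh (-0.59 ± 0.10). Their mean log2 CPM was 6.32 to 7.59 in LKO and 5.58 to 7.43 in Flox libraries. Within each group it was highest in library 1 (7.59 in LKO 1 and 7.43 in Flox 1), where Ppara stood at 68.8 and 47.4 CPM. The mean was 7.48 in LKO 5 and 7.38 in Flox 5, where Ppara was highest. In Flox 2 it was 6.045, where Ppara stood at 72.8 CPM, next below LKO 5 and Flox 5. Flox 4 had the lowest mean (5.58) and the lowest Ppara (43.3 CPM) of all libraries. LKO 3 and LKO 4 had the lowest LKO means (6.315 and 6.486) and the lowest LKO values of Ppara (52.8 and 49.0 CPM). CAR and PXR targets fell in 5 of 13 cases, with the drug-metabolising Cyp3a11 at -0.57 ± 0.12 and Cyp3a25 at -0.30 ± 0.06. Without Flox 2 and Flox 3, 1 FXR and SHP target fell past the threshold (Cyp8b1, -1.11 ± 0.17). Of LXR targets 1 then fell (Scd1, -0.81 ± 0.11) and 1 rose. Of PPARA targets 2 fell (neither Acaa1b nor Ehhadh), and of CAR and PXR targets 0. The PPARA slopes were then negative for 17 of 17, against 15 with all libraries, and their median was -0.678 against -0.248. CAR and PXR targets had 12 of 13 negative slopes in both fits, with medians of -0.285 and -0.299. The medians of LXR targets (-0.063 against -0.319) and of FXR and SHP targets (-0.012 against -0.046) were nearer to level.

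Thyroid hormone receptor targets fell in 3 of 6 cases, with malic enzyme Me1 at -0.97 ± 0.10 and Hr at -1.05 ± 0.19. Of 12 HNF4A targets 3 fell, among them Ttr (-0.33 ± 0.06) and the urea cycle enzyme Otc (-0.21 ± 0.05), while the estimate for Hnf4a itself was positive. Of 12 glucocorticoid targets 3 rose past the threshold, among them the metallothioneins Mt2 (2.37 ± 0.23) and Mt1 (2.14 ± 0.34), close copies whose reads may be shared. The list as a whole had 6 positive and 6 negative slopes, with a median of -0.051. Without Flox 2 and Flox 3, 1 thyroid hormone receptor target fell (Me1, -0.95 ± 0.18), 0 HNF4A targets fell and 1 glucocorticoid target rose (Mt2, 2.18 ± 0.37). Of 5 retinoic acid and vitamin D targets tested, and of 20 coregulators, 0 passed in either direction. Of 12 further nuclear receptor genes 5 could be tested and 0 passed. Among 14 early-response genes tested 1 rose, Fosl2 (0.32 ± 0.06, and 0.18 ± 0.09 without Flox 2 and Flox 3, where it did not pass and 1 other of 15 rose), while Nr4a1 had a slope of 0.04 ± 0.18. Of the acute phase genes themselves, whose mean is the score, 24 of 26 rose, which the choice of score fixes.

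Endothelial markers had 0 of 10 past the slope threshold and 2 lower in LKO at an unadjusted p under 0.05. Cholangiocyte markers had 1 of 5 rising (Spp1), T and NK cell markers 1 of 9 rising (Cd3d), and neutrophil, B and plasma cell, Kupffer and erythroid markers 0. Without Flox 2 and Flox 3, 8 of 10 Kupffer and 5 of 6 neutrophil markers tested rose with the score, and 0 cholangiocyte and 0 T and NK cell markers did.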

How the data were processed

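Liver RNA selected with oligo-dT was sequenced in 10 libraries, per the labels' protocols. The deposited table holds whole-number read counts per Ensembl gene with no normalization, per the file headers and values. Tools named by the submitters' processing notes are STAR 2.5.1a, featureCounts 1.4.6-p5, Subread and bcl2fastq, and the build is GRCm38. The sources used here state neither strandedness nor the annotation release.

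Of 55774 lines, 287 repeats were dropped. The 45 library pairs differed by more than sampling noise (chi-square per gene 41.2 to 768). Genes passing filterByExpr (15894) were tested with edgeR 4.0.16 (quasi-likelihood, robust, TMM, R 4.3.3), two-sided, with Benjamini-Hochberg adjustment over all of them and a threshold of 0.05. CPM was scaled by TMM factors (0.963 to 1.04), and log2 CPM used a prior count of 2. Fits were tested on simulated data. TPM used GENCODE M21 exon unions of GRCm38, and promoters came from RefSeq. Alternatives were DESeq2 1.42.0, limma 3.58.1 (voom), other scaling, filter, covariate and score, and libraries left out.

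The rule for members uses symbols and no measured value, but members and lists were chosen with earlier results of these data known. Values in every library are given for the 8 highest receptors per length and for those at an unadjusted p under 0.05 between groups, past the slope threshold or with an outlying library. From each other list at most 2 genes with the smallest p are named. Pparg, Rarb and the other receptors singled out were chosen after their values were seen.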

Additional observations from a re-analysis of the deposited data

Results flagged for a closer look

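In a group of 5 libraries, a level was marked where the gap from the highest or lowest library to its nearest neighbour exceeded 0.71 of the group's range (Dixon's 95% value). Of 72 groups (36 receptors in LKO and in Flox) 6 were marked, and chance alone marks about 1 in 20.

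Nr0b2 was high in LKO 1 at 65.56 CPM, with the other LKO libraries at 20.1 to 28.0 CPM. Ppard was high in the same library at 23.42 CPM, with the others at 7.54 to 8.29 CPM. Nr2f1 was low in LKO 4 at 0.3287 CPM, with the others at 0.655 to 0.760 CPM. Nr2f6 was high in Flox 2 at 105.6 CPM, with the other Flox libraries at 62.7 to 73.65 CPM. Vdr was marked in LKO 2 at 0.08449 CPM and in Flox 3 at 0.3494 CPM, with the others at 0 in LKO and at most 0.0405 CPM in Flox.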

How the results depend on the processing

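For the comparison of groups, the count of receptors past the threshold was 0 under every alternative run. Over all genes it was 0 except with DESeq2. DESeq2 was first run with alpha 0.05 in its independent filtering, which called 0 of 32926 genes. It was then run at the default settings that had been planned, after that count was seen, and called 6 of 15684. Leaving out 1 library gave 0 to 0.

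On the acute phase slope, 1004 of 15894 genes passed in the main fit. DESeq2 gave 1883 of 17644 (1913 of 16364 with alpha 0.05) and limma-voom 2074 of 15894. The count was 323 of 16551 without Flox 2 and Flox 3, and 2159 of 15894 without the group term. With 1 library left out it ran from 182 of 16096 to 1076 of 16059. Of the 33 receptors, 3 passed in the main fit, 6 with DESeq2 (6 with alpha 0.05) and 7 with limma-voom. Without Flox 2 and Flox 3 (also the libraries farthest from the median score) 0 passed, and without the group term 9. Leaving out 1 library at a time gave 0 to 4. With Saa1 plus Saa2 as the score 4 passed (Hnf4a and Pparg gained, Nr2f2 lost), beside 1075 of 15894 genes. Without the filter 3 of 36 passed, with Vdr in place of Nr6a1, beside 1079 of 32998 genes. Hnf4a, which rose, was called by DESeq2, by limma-voom and without the group term. Slopes of the other lists without Flox 2 and Flox 3 were added after seeing the data. The cause was not tested.

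Fold changes turned for 14 of 33 receptors, none past the threshold. With the score as a covariate they were -0.23 (Nr0b2), -0.004 (Nr1h4), 0.01 (Nr1i2), -0.20 (Nr4a2), 0.02 (Nr5a2), 0.095 (Hnf4a), -0.11 (Rxrg), -0.11 (Rarb), 0.16 (Rarg), -0.12 (Ppara), -0.075 (Pparg), 0.15 (Esr1) and -0.024 (Esrra). Without Flox 2 and Flox 3 they were 0.023 (Nr1i2), -0.13 (Nr4a2), 0.02 (Nr5a2), 0.085 (Hnf4a), -0.15 (Rxrg), -0.16 (Rarb) and 0.11 (Esr1). With limma-voom they were -0.43 (Nr4a2), 0.014 (Rarg) and 0.027 (Esr1). With 1 library left out they ran from -0.391 to 0.241 (Nr0b2), -0.088 to 0.015 (Nr1i2), -0.083 to 0.11 (Nr2f2), -0.336 to 0.418 (Nr4a2), -0.086 to 0.112 (Rxrg), -0.202 to 0.27 (Rarg), -0.129 to 0.347 (Ppara) and -0.115 to 0.037 (Esr1).

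Slopes turned for 9 of 33. Without Flox 2 and Flox 3 they were -0.088 (Nr1h3), -0.016 (Nr1i2), -0.29 (Nr1i3), -0.025 (Nr2f6) and -0.10 (Rxrb), and with Saa1 plus Saa2 as the score -0.014 (Nr1i3). With 1 library left out they ran from -0.02 to 0.097 (Nr1h2), -0.024 to 0.051 (Nr1h3), -0.207 to 0.039 (Nr1i3), -0.103 to 0.003 (Nr2c2), -0.091 to 0.162 (Nr4a1), -0.006 to 0.067 (Rxrb) and -0.612 to 0.088 (Ppard).

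The column numbers are shared by both groups, but no label pairs libraries of the same number, so whether they are pairs is not known. Deviations of same-numbered libraries correlated at 0.354, 0.089, 0.074, 0.099 and 0.288. Numbers 1 and 5 matched best with their own, and numbers 2, 3 and 4 with another. With the number as a replicate block, an alternative chosen after seeing the data, 0 genes and 0 receptors passed, 1535 genes had an unadjusted p under 0.05, and the fold changes of Nr0b2, Nr2f2 and Rarg turned to -0.004, 0.02 and 0.021. Of the 8 highest receptors, 7 stayed so with the longest transcript as length and 8 with the median. Of all 36 ranks, 18 stayed the same with the longest transcript (largest shift 3) and 26 with the median (largest shift 1). The depth does not resolve Vdr, Hnf4g and Nr4a3.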
